A study of Mus musculus with 6 samples.

Results

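The 10 genes described here are negative feedback regulators and transcriptional outputs of the ERK pathway, and their RNA was measured in whole tumours of B16F10 cells, a mouse melanoma line. They were chosen by gene symbol: the dual-specificity phosphatase genes Dusp4, Dusp5 and Dusp6, the Sprouty genes Spry2 and Spry4 with their relative Spred1, the ETS factor genes Etv4 and Etv5, and the ERK target genes Ier3 and Phlda1. All 10 were among the 20938 genes of the deposited table. Of the 6 tumours, 3 were labelled as overexpressing YKL-40, a secreted chitinase-like protein, and 3 as controls. Both groups share the cell line, a genotype given as WT, male C57BL/6 hosts aged 6 weeks, subcutaneous injection of cells in 200 µL of saline at the left hind leg, and collection on day 19. The vector of the control cells, the species of the YKL-40 sequence and the number of clones behind each group are not given in the sources used here. The hosts are immunocompetent C57BL/6 mice, so each library holds RNA of tumour and host cells.

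ERK is the last kinase of a cascade that runs from receptor tyrosine kinases through Ras, Raf and MEK. Active ERK phosphorylates transcription factors of the ETS family and cofactors of serum response factor (SRF), and genes switched on in this way include inhibitors of the cascade itself. The phosphatases act on ERK, Sprouty and Spred proteins act near Ras, and RNA levels of such genes are often used as a readout of ERK activity in melanoma. No phosphorylated ERK was measured here.

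In the RefSeq promoter table of build GRCm38.p6, 6 of the 10 genes were searched, with 7 annotated starts. The upstream stretches of 3 genes are shown because these had the clearest separation of the groups among the 6. Spry4 and Etv4, whose groups were also apart, were not among the genes searched. Each run is the 250 bases before an annotated start, 5′ to 3′ on the strand of the gene, in lower case, with motif matches in capitals. Those of Dusp5 (chr19:53528895-53529144, plus strand), Ier3 (chr17:35821463-35821712, plus strand) and the first start of Etv5 (chr16:22439571-22439820, minus strand) read as follows.
Dusp5: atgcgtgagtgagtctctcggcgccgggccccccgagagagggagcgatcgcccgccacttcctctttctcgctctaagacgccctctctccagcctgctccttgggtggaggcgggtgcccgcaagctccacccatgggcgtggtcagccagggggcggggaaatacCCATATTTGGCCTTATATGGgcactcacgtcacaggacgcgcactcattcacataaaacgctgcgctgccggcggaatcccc
Ier3: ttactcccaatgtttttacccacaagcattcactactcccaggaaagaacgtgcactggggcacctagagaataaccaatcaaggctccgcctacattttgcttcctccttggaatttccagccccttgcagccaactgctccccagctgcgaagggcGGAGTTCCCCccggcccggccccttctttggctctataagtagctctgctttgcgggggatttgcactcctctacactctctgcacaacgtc
Etv5: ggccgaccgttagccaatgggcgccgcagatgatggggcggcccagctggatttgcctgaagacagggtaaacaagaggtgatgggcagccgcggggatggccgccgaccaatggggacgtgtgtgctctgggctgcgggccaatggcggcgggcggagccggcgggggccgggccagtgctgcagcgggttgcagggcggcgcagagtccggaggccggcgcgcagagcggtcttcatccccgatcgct

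Both strands were searched for the CArG box bound by SRF, an ETS motif (CCGGAA), the AP-1 motif (TGANTCA), the cyclic AMP response element (TGACGTCA) and the NF-kB motif. The capitals in the Dusp5 stretch are a pair of adjoining CArG boxes, whose first bases lie 82 and 72 bases before the start. A CArG box was found in 1.47% of all 32851 upstream stretches of the table. The capitals in the Ier3 stretch are an NF-kB match on the opposite strand, from 92 to 83 bases before the start, a motif found in 3.90% of all stretches. The other 5 stretches, those of Dusp6, Spry2, Spred1 and both starts of Etv5, held no match to any of the 5 motifs. For the ETS, AP-1 and cyclic AMP motifs the share over all stretches was 12.0%, 6.75% and 1.55%. A match is a description of the letters only.

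None of the 10 genes passed the test across all genes, and their differences went in both directions. Values are FPKM, fragments scaled to transcript length and library depth, which allows approximate comparison between genes and between libraries. It does not correct for differences in the RNA makeup of the libraries. A change is the difference of the group means of log2(FPKM + 1), YKL-40-labelled minus control, tested with limma over the 11241 genes that averaged 1 FPKM or more, and called at a Benjamini-Hochberg adjusted p under 0.05. Of the 10 genes, 9 reached that mean, 0 were called, and 49 of all tested genes (0.436%) were. At an unadjusted p under 0.05 in limma, Dusp5, Ier3 and Phlda1 were higher, where 8.71% of all tested genes were higher, and Spry4 and Etv5 were lower, where 9.24% were lower. The groups did not overlap for Dusp5 and Ier3 in the higher direction (10.3% of all tested genes) and for Spry4 and Etv5 in the lower direction (14.2%). Dusp5 reached the mean of 1 FPKM only through the YKL-40-labelled libraries, and Etv4 missed it only through them, so the count over the 9 is a description. The median change was 0.04 over the 9 genes and -0.04 over all tested genes. In a fit without the filter it was -0.02 over all 10 genes and -0.01 over 16417 genes.

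**Figure D1:**
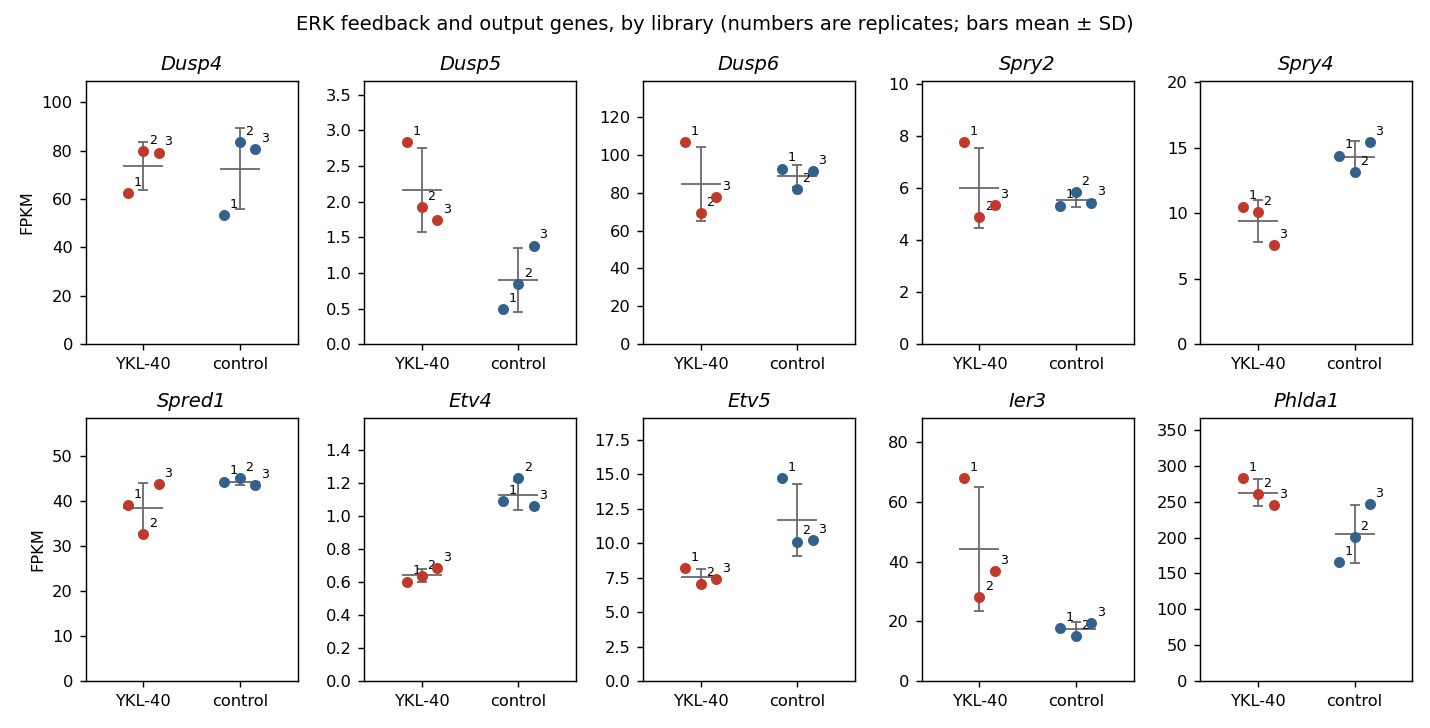
FPKM of each of the 10 genes in the 3 YKL-40-labelled (left) and 3 control (right) libraries; points are libraries with their replicate number, and bars are mean ± SD. The groups are apart for Dusp5, Ier3, Spry4, Etv4 and Etv5, and Ier3 reaches 67.9 FPKM in YKL-40-labelled library 1.

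The phosphatase genes differed among themselves. Dusp6, which encodes a cytoplasmic phosphatase specific for ERK and is a widely used transcript readout of the pathway, had 107, 69.3 and 77.9 FPKM in the YKL-40-labelled libraries and 92.8, 81.9 and 91.3 FPKM in the controls. The YKL-40-labelled libraries held both the highest and the lowest of the 6 values, and the controls lay between them. The change was -0.09 ± 0.16 (SE, n = 3 per group), with a 95% interval of -0.47 to 0.29 and an adjusted p of 0.812 in limma. The interval leaves room for a decrease or an increase of modest size, so equal levels were not shown.

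Dusp4, a nuclear phosphatase that acts on ERK and other MAP kinases, was almost as abundant as Dusp6. Its values were 62.3, 79.8 and 79.2 FPKM in the YKL-40-labelled libraries and 53.3, 83.6 and 80.7 FPKM in the controls. Library 1 was the lowest of its group in both groups, and the other 4 libraries lay close together. The change was 0.04 ± 0.19, with a 95% interval of -0.40 to 0.49 (limma adjusted p = 0.931). The ratio of Dusp6 to Dusp4 was 1.72, 0.869 and 0.984 in the YKL-40-labelled libraries and 1.74, 0.980 and 1.13 in the controls. It was thus highest in library 1 of each group, and the groups overlapped.

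Dusp5 encodes a nuclear phosphatase specific for ERK and was the least abundant of the 3. It had 2.84, 1.92 and 1.74 FPKM in the YKL-40-labelled libraries and 0.491, 0.840 and 1.38 FPKM in the controls. All YKL-40-labelled libraries lay above all controls, although the gap between 1.74 and 1.38 FPKM was smaller than the spread within either group. The mean was 2.17 ± 0.589 FPKM against 0.905 ± 0.450 FPKM (SD, n = 3 each), a ratio of 2.40. The change of 0.74 ± 0.22 had an adjusted p of 0.151 in limma and an exact two-sided permutation p of 0.1, which is the smallest that 3 against 3 libraries allow. With pseudocounts of 0.1 and 0.01 in place of 1 the change was 1.24 and 1.34, since the added 1 is large beside these values, and neither passed (limma adjusted p = 0.171 and 0.179). Dusp5 passed the filter only through its YKL-40-labelled libraries. In the fit without a filter, with a pseudocount of 1, its adjusted p was 0.193 in limma. The sum of the 3 phosphatase genes, of which Dusp5 makes up little, was 161 ± 10.7 FPKM in the YKL-40-labelled libraries and 162 ± 13.9 FPKM in the controls.

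Of the pair of Sprouty genes among the 10, Spry4 had separate groups and Spry2 did not. Sprouty proteins hold back signalling from receptor tyrosine kinases to Ras. Spry4 (chromosome 18, 38586247 to 38601347, GRCm38.p6) had 10.5, 10.1 and 7.56 FPKM in the YKL-40-labelled libraries and 14.4, 13.1 and 15.4 FPKM in the controls. All YKL-40-labelled libraries lay below all controls, and library 3 of the YKL-40-labelled group was the lowest. The change was -0.57 ± 0.14, with a 95% interval of -0.89 to -0.25, a ratio of means of 0.655, an adjusted p of 0.108 in limma and an exact permutation p of 0.1. It was the lowest limma p among the 9 tested genes.

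Spry2 had values of 7.79, 4.90 and 5.35 FPKM in the YKL-40-labelled libraries and 5.33, 5.85 and 5.44 FPKM in the controls. YKL-40-labelled library 1 stood above the other 5, which lay close together. The change was 0.08 ± 0.16, with a 95% interval of -0.30 to 0.46 (limma adjusted p = 0.831). The ratio of Spry4 to Spry2 was 1.35, 2.06 and 1.41 in the YKL-40-labelled libraries against 2.70, 2.24 and 2.84 in the controls, and these did not overlap. Between Spry4 and Dusp6, both taken as readouts of ERK, the ratio was 0.0982, 0.145 and 0.0971 against 0.155, 0.160 and 0.169, again without overlap. The ratios between members were chosen with the values known and were not tested.

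Spred1 encodes a Sprouty-related protein that brings neurofibromin, an inactivator of Ras, to the membrane. It had 39.0, 32.7 and 43.7 FPKM in the YKL-40-labelled libraries and 44.2, 44.9 and 43.5 FPKM in the controls. The controls had a coefficient of variation of 1.58%, while the YKL-40-labelled libraries ranged from the lowest value of all up to the level of the controls. The change was -0.21 ± 0.12, with a 95% interval of -0.48 to 0.07 (limma adjusted p = 0.400). It was -0.10 without YKL-40-labelled library 2.

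For both ETS factor genes, all YKL-40-labelled libraries lay below all controls. Etv4 and Etv5 belong to the PEA3 group of ETS transcription factors, which are induced downstream of ERK in many tissues. Etv5 (chromosome 16, 22381313 to 22439570) had 8.20, 7.08 and 7.40 FPKM in the YKL-40-labelled libraries and 14.7, 10.1 and 10.2 FPKM in the controls. Control 1 stood above the other controls. The change was -0.55 ± 0.15, with a 95% interval of -0.91 to -0.19, a ratio of means of 0.646, an adjusted p of 0.142 in limma and an exact permutation p of 0.1. Without control 1 it was -0.39 (limma adjusted p = 0.250).

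Etv4 (chromosome 11, 101769747 to 101785310) had the lowest mean of the 10 genes over the 6 libraries, although Dusp5 was lower in the control mean. It had 0.602, 0.634 and 0.681 FPKM in the YKL-40-labelled libraries and 1.09, 1.23 and 1.06 FPKM in the controls. Both groups were tight, and the ratio of means was 0.569. Its mean of 0.881 FPKM over all libraries lay below the filter. In the fit without a filter its change was -0.37 ± 0.06, with a 95% interval of -0.52 to -0.22 and an adjusted p of 0.128 in limma (exact permutation p = 0.1). With pseudocounts of 0.1 and 0.01 in that fit the change was -0.73 and -0.80 (limma adjusted p = 0.165 and 0.204). At this level, and with total read numbers unknown, the counting error behind Etv4 cannot be given. The ratio of Etv5 to Etv4 was 13.6, 11.2 and 10.9 in the YKL-40-labelled libraries against 13.5, 8.26 and 9.70 in the controls, and the groups overlapped.

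With a pseudocount of 1, Ier3 had the largest change among the 10 genes, whereas with 0.01 Dusp5 had the larger one (1.34, and 1.25 for Ier3). Ier3 encodes a small immediate early protein involved in cell survival, and its transcription is known to respond to ERK and to NF-kB. It had 67.9, 28.0 and 36.8 FPKM in the YKL-40-labelled libraries and 17.6, 15.0 and 19.5 FPKM in the controls. All YKL-40-labelled libraries lay above all controls, and library 1 was far above the other YKL-40-labelled libraries. The means were 44.2 ± 20.9 and 17.4 ± 2.24 FPKM (SD, n = 3 each), a ratio of 2.55. The change was 1.21 ± 0.29, with a 95% interval of 0.52 to 1.90, an adjusted p of 0.109 in limma and an exact permutation p of 0.1. Without YKL-40-labelled library 1 the change was 0.86 (limma adjusted p = 0.163), and without library 2 it was 1.48 and passed (limma adjusted p = 0.0493).

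The Ier3 gene (chromosome 17, 35821713 to 35822911) lies in the region of the MHC class I genes, between Ddr1 and Flot1. Ddr1, a collagen receptor gene, averaged 17.6 ± 1.11 FPKM in the YKL-40-labelled libraries and 14.8 ± 4.97 FPKM in the controls, a change of 0.29 ± 0.23 (limma adjusted p = 0.547). Flot1, the gene of a membrane scaffold protein, averaged 3.29 ± 0.248 and 3.01 ± 0.309 FPKM, a change of 0.10 ± 0.12 (limma adjusted p = 0.689). In both neighbours the groups overlapped.

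Phlda1, the most abundant of the 10 genes, encodes a pleckstrin homology-like protein whose RNA is induced by growth factors. Its values were 282, 261 and 245 FPKM in the YKL-40-labelled libraries and 166, 201 and 247 FPKM in the controls. Control 3 lay just above YKL-40-labelled library 3, so the groups overlapped. The change was 0.38 ± 0.15, with a 95% interval of 0.02 to 0.73 (limma adjusted p = 0.256). Without control 1 it was 0.23, and without control 3 it was 0.52 (limma adjusted p = 0.506 and 0.114).

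**Figure D2:**
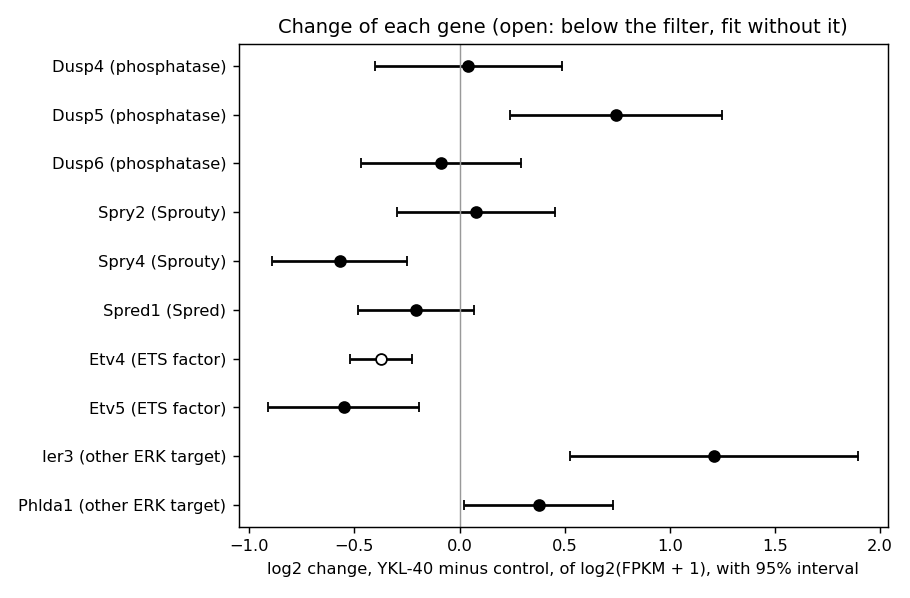
Change of each gene on the log2(FPKM + 1) scale, YKL-40-labelled minus control, with its 95% interval from limma; the open point, Etv4, comes from the fit without a filter. Intervals of 5 tested genes and Etv4 exclude 0 before adjustment, 3 tested genes on the higher side and 2 tested genes and Etv4 on the lower.

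In order of level, Phlda1 stood first in both groups, at 263 ± 18.8 FPKM in the YKL-40-labelled libraries and 205 ± 40.4 FPKM in the controls. Dusp6 and Dusp4 came next, with overlapping values in both groups. Ier3 followed in the YKL-40-labelled libraries, overlapping both Dusp4 and Spred1, while in the controls all 3 values of Spred1 lay above all 3 of Ier3. Spry4, Etv5 and Spry2 followed in the same order in both groups. Spry4 overlapped Etv5 in each group, and Etv5 overlapped Spry2 in the YKL-40-labelled libraries. Dusp5 was above Etv4 in every YKL-40-labelled library, whereas the controls of these 2 genes overlapped. By mean level over the 6 libraries, Phlda1 lay above 97.3% of all tested genes, Dusp6 above 91.0% and Dusp5 above 5.10%.

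The libraries within a group did not move together across the 10 genes. YKL-40-labelled library 1 held the highest of the 6 values for 5 genes, Dusp5, Dusp6, Spry2, Ier3 and Phlda1, where it was the highest library for 18.7% of all tested genes. YKL-40-labelled library 2 held the lowest value for 4 genes, Dusp6, Spry2, Spred1 and Etv5, where it was the lowest for 14.1% of all tested genes. Of the controls, library 1 was the lowest for Dusp4, Dusp5 and Phlda1, where it was the lowest for 19.5% of all tested genes, and library 2 was the highest for Dusp4, Spred1 and Etv4, where it was the highest for 13.8%. Within the YKL-40-labelled group the coefficient of variation ran from 6.28% for Etv4 to 47.3% for Ier3, and within the controls from 1.58% for Spred1 to 49.7% for Dusp5.

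**Figure D3:**
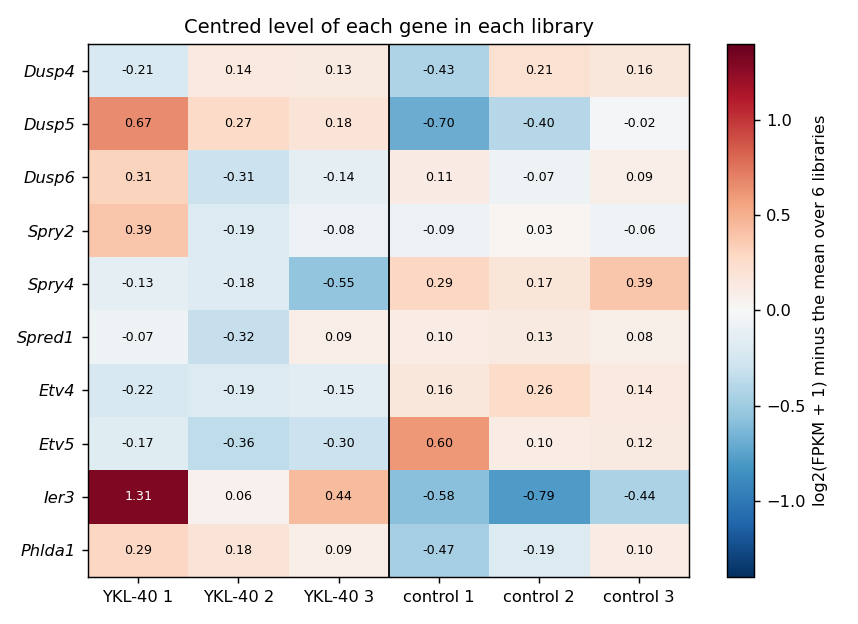
Level of each gene in each library as log2(FPKM + 1) minus the mean of that gene over the 6 libraries, YKL-40-labelled libraries on the left. Ier3 reaches 1.31 in YKL-40-labelled library 1, Dusp5 is at -0.70 in control 1, and Spry4, Etv4 and Etv5 are below 0 in all YKL-40-labelled libraries.

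By the rule for likeness, the root mean square difference between centred log2 profiles over the 6 libraries, the tested genes nearest to Dusp6 were C1galt1c1, Pdcd5 and Tra2a, with differences of 0.03, 0.05 and 0.05 against 0.20 for a flat profile. C1galt1c1, a chaperone gene of O-glycan synthesis, had 22.2, 14.1 and 16.5 FPKM in the YKL-40-labelled libraries and 20.1, 17.5 and 19.1 FPKM in the controls. Nearest to Spry4, the member of lowest p, were Sh3pxd2a, Tnfrsf10b and Xylt1, with differences of 0.04, 0.09 and 0.09 against 0.32 for a flat profile. Sh3pxd2a, the gene of a scaffold protein of invadopodia, had 22.2, 22.4 and 16.6 FPKM in the YKL-40-labelled libraries and 31.5, 27.1 and 31.3 FPKM in the controls. With 6 libraries and 11241 genes, close profiles are found for many genes, and no relation follows.

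The rest of the pathway was read from 3 lists, chosen by role. Of 30 genes of the cascade itself, 29 were tested and 0 were called in limma, with a median change of -0.05. At an unadjusted p under 0.05 in limma, 0 were higher and 3 lower, beside 8.71% and 9.24% of all tested genes. ERK1 is encoded by Mapk3, which was not named by rule. Mapk3 averaged 27.9 ± 2.12 FPKM in the YKL-40-labelled libraries and 28.8 ± 1.86 FPKM in the controls, a change of -0.04 ± 0.10.

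The receptor Met, which binds hepatocyte growth factor, was the most abundant gene of the cascade list, at 532, 724 and 704 FPKM in the YKL-40-labelled libraries and 474, 703 and 431 FPKM in the controls. The groups overlapped, and the change was 0.30 ± 0.21 (limma adjusted p = 0.474). Erbb3, a receptor that signals in pairs with other ERBB receptors, had 8.98, 6.91 and 6.43 FPKM against 14.99, 10.6 and 10.0 FPKM, all below the controls, with a change of -0.60 ± 0.18 (limma adjusted p = 0.157). Sos1, an exchange factor that activates Ras, averaged 23.8 ± 3.50 FPKM in the YKL-40-labelled libraries and 30.6 ± 1.05 FPKM in the controls, a change of -0.36 ± 0.12 (limma adjusted p = 0.192). Rps6ka3, a kinase activated by ERK, averaged 24.8 ± 2.40 and 32.0 ± 3.53 FPKM, a change of -0.35 ± 0.12 (limma adjusted p = 0.192). The groups of Erbb3, Sos1 and Rps6ka3 did not overlap. Of the 29 tested cascade genes the groups of 2 were apart in the higher direction and those of 5 in the lower direction, beside 10.3% and 14.2% of all tested genes. By role, the median change was -0.23 over 7 adaptor and exchange factor genes, -0.05 over 5 genes of Ras proteins and their inactivators, -0.02 over 10 kinase and scaffold genes and -0.00097 over 7 tested receptor genes, beside -0.04 over all tested genes, and 0 genes of any role were called in limma.

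Of 14 other feedback genes, 10 were tested, 0 were called and 0 had an unadjusted p under 0.05 in limma, with a median change of -0.14. Of all tested genes, 8.71% were higher and 9.24% lower at that unadjusted p. Dusp1, a stress-induced phosphatase gene, had 7.69, 5.88 and 6.41 FPKM in the YKL-40-labelled libraries and 3.23, 3.69 and 6.83 FPKM in the controls, a change of 0.50 ± 0.23 (limma adjusted p = 0.312). Only control 3 reached the level of the YKL-40-labelled libraries. Spry1, another Sprouty gene, averaged 3.79 ± 0.186 FPKM in the YKL-40-labelled libraries and 4.52 ± 0.149 FPKM in the controls, without overlap, and its change was -0.21 ± 0.10 (limma adjusted p = 0.333). The summed level of Spry1, Spry2 and Spry4 was 21.9, 19.0 and 16.6 FPKM in the YKL-40-labelled libraries and 24.4, 23.6 and 25.2 FPKM in the controls, without overlap. This sum holds Spry1 and Spry4, whose groups were already apart, so it adds no separate result, and the groups of Spry2 overlapped. Errfi1, an inhibitor of ERBB receptors, had a change of 0.37 ± 0.19, and Dusp2, the most abundant of this list, one of 0.18 ± 0.12, neither past the test (limma adjusted p = 0.351 and 0.464).

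Of 15 other output genes, 10 were tested and 0 were called in limma, with a median change of 0.22. At an unadjusted p under 0.05 in limma, 2 were higher and 0 lower, beside 8.71% and 9.24% of all tested genes. Of the 5 genes below the filter, Fosl1, Epha4, Areg and Ereg had separate groups, higher in the YKL-40-labelled libraries (10.3% of all tested genes). The groups of Epha2 overlapped. In a fit without the filter, 5 of 15 had an unadjusted p under 0.05 in limma, beside 2694 of 16417 genes, and 0 were called. Fos, an immediate early AP-1 gene, had 34.7, 18.6 and 21.6 FPKM in the YKL-40-labelled libraries and 6.58, 10.9 and 14.1 FPKM in the controls. The groups did not overlap, and library 1 was the highest, as for Ier3. The change was 1.18 ± 0.30 (limma adjusted p = 0.120). Junb, another AP-1 gene, had 17.3, 8.90 and 13.1 FPKM against 4.40, 7.26 and 9.20 FPKM, with a change of 0.83 ± 0.29 (limma adjusted p = 0.204) and overlapping groups. Etv1, the remaining gene of the PEA3 group, averaged 19.1 ± 2.29 FPKM in the YKL-40-labelled libraries and 28.5 ± 11.2 FPKM in the controls, a change of -0.50 ± 0.25 (limma adjusted p = 0.342). Control 1 had 41.3 FPKM of Etv1 and was also the highest library for Etv5. Ccnd1, the cyclin D1 gene and the most abundant of this list, averaged 26.7 ± 3.69 and 29.0 ± 3.47 FPKM, a change of -0.12 ± 0.13 (limma adjusted p = 0.686).

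**Figure D4:**
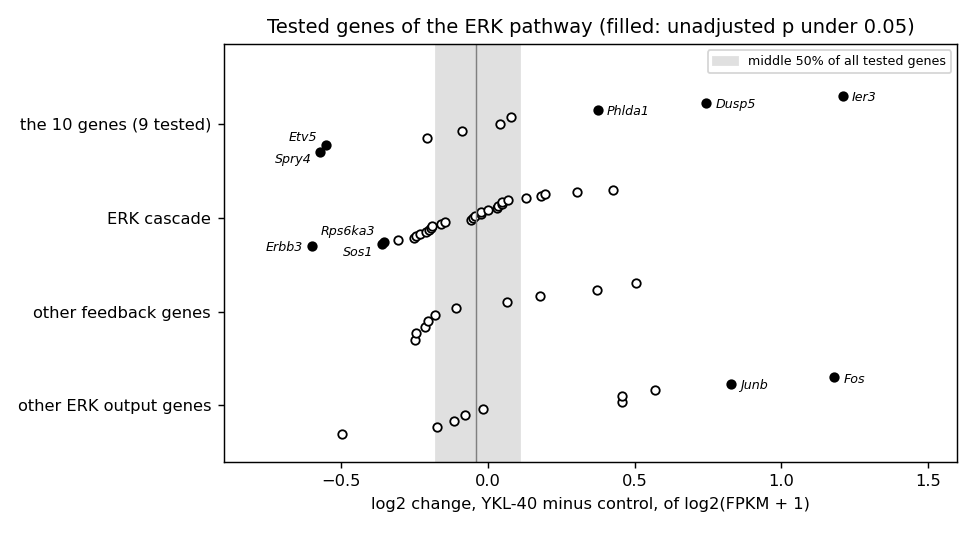
Change of every tested gene on the log2(FPKM + 1) scale, YKL-40-labelled minus control, for the 10 genes and 3 other lists of the pathway; filled points have an unadjusted p under 0.05 in limma and the grey band spans the middle 50% of all tested genes, from -0.18 to 0.11. Points lie on both sides of the band in all 4 rows, and 0 genes passed the adjustment over all genes.

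Among features of the transcripts, the AU-rich pentamer AUUUA, found in many short-lived RNAs, was counted in the longest 3′ UTR of each gene in GENCODE release M21 of the same build. Ier3 had 5 in 613 bases and Phlda1 had 3 in 612 bases, or 8.16 and 4.90 per kilobase. Densities were compared over 3′ UTRs of at least 200 bases. Those as high or higher were found in 0.871% of tested genes for Ier3 and 5.18% for Phlda1. The median over tested genes was 1.45 per kilobase. Both 3′ UTRs were shorter than the median of 1224 bases. By count, 23.9% of tested genes had as many or more than Ier3, and 39.8% as many or more than Phlda1. The highest counts among the members were 12 in Spred1 (4.56%) and 7 in Spry4 (14.5%), whose 3′ UTRs were long, at 4330 and 3559 bases. The other 8 members ran from 0 per kilobase in Etv4 to 2.77 in Spred1, and Dusp5 had 0.902.

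The libraries differed in other ways as well. The mouse gene of YKL-40, Chil1, was at 0 FPKM in all 3 YKL-40-labelled libraries and at 0.0644, 0 and 0.0242 FPKM in the controls, so it gives no check of the labels if the introduced sequence is not the mouse one. If it is the mouse one, these values show no overexpression. The labels were taken as given. FPKM sums ran from 468605 to 490955 in the YKL-40-labelled libraries and from 469464 to 479586 in the controls. Depth relative to control 1, estimated from the smallest values, ran from 0.947 to 1.20 and from 1 to 1.33. Melanocyte markers matched the labelled line, since 8 of 8 were expressed, with Pmel the most abundant at 4906 ± 753 FPKM in the YKL-40-labelled libraries and 3752 ± 122 FPKM in the controls.

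Summed markers of host cells differed between the groups, and in bulk RNA fewer cells of a type and less RNA per cell cannot be told apart. Over 10 macrophage markers the summed level ran from 217 to 355 FPKM in the YKL-40-labelled libraries and from 60.3 to 167 FPKM in the controls, and the most abundant was C1qa. Over 10 T cell markers, led by Thy1, it ran from 10.5 to 28.7 and from 2.04 to 6.40 FPKM. Skeletal muscle markers, led by Tnnt3, went the other way, with 3.19 to 23.4 FPKM in the YKL-40-labelled libraries and 35.4 to 153 FPKM in the controls. The sums of 10 fibroblast markers, led by Col3a1, were 269 to 461 and 55.4 to 302 FPKM, and those of 10 endothelial markers, led by Eng, 107 to 163 and 106 to 166 FPKM, both with overlap. At an unadjusted p under 0.05 in limma, 9 of 10 macrophage, 8 of 10 fibroblast and 3 of 3 tested T cell markers were higher, beside 8.71% of all tested genes. Lower were 7 of 8 tested muscle markers, beside 9.24% of all tested genes, while 0 markers were called. Of 6 keratinocyte markers, 4 were at 0 in every library and Krt10 was the highest. YKL-40-labelled library 1, where Ier3, Dusp5 and Fos were highest, had sums of 217 FPKM for macrophage, 19.5 FPKM for T cell and 375 FPKM for fibroblast markers, each above all controls. Within its group its macrophage sum was the lowest, beside 269 and 355 FPKM in libraries 2 and 3. Its T cell and fibroblast sums lay between those of library 2 (10.5 and 269 FPKM) and library 3 (28.7 and 461 FPKM). The part of these cell types in the levels of Dusp5, Ier3, Spry4, Etv4 and Etv5 was not tested.

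**Figure D5:**
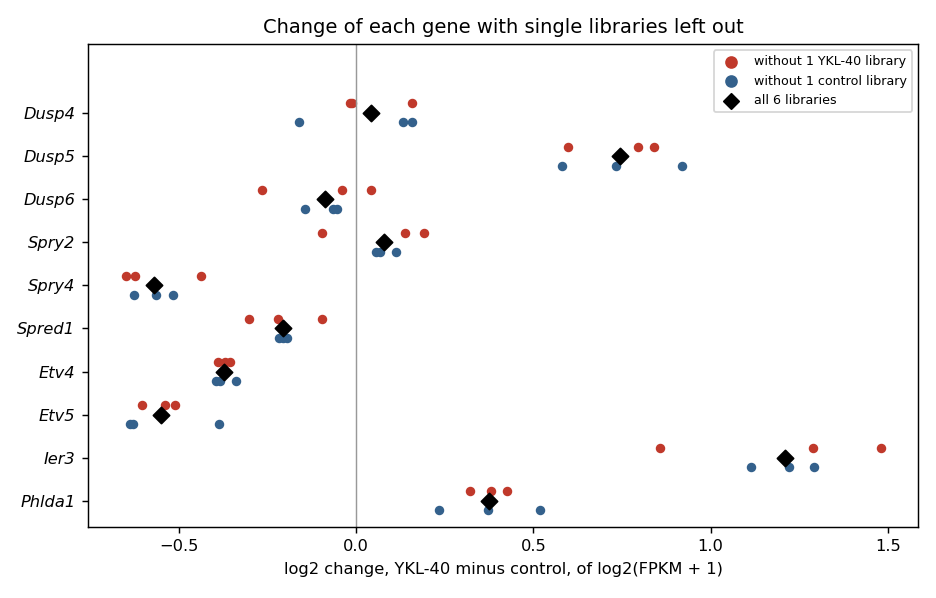
Change of each gene on the log2(FPKM + 1) scale, YKL-40-labelled minus control, from all 6 libraries (diamonds) and with 1 YKL-40-labelled (upper points) or 1 control library (lower points) left out. Dusp5, Ier3 and Phlda1 stay above 0 and Spry4, Spred1, Etv4 and Etv5 below 0 in all 6 of these fits, while Dusp4, Dusp6 and Spry2 have points on both sides. For Dusp5, Ier3, Spry4, Etv4 and Etv5, whose groups do not overlap, leaving out 1 library cannot change the direction.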

How the data were processed

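The deposited table gives 1 FPKM value per gene and library, computed by the authors. Per the submitters' processing notes, the tools were bcl2fastq 2.0, HISAT2, StringTie, DESeq2 and limma with build mm10, and their roles are not given. Libraries came from 2 µg of RNA with a TruSeq v2 kit, per the labels' protocols, which keeps no strand. Total read numbers are unknown, so no counting interval is given. Relative depth of a library is the commonest ratio of the control 1 value to its own value. It was taken over genes above 0 and below 0.3 FPKM in both.

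Groups were taken from the titles. limma 3.58.1 in R 4.3.3 was run on log2(FPKM + 1) with trended moderated variances over the 11241 genes that averaged 1 FPKM or more, two-sided, with Benjamini-Hochberg adjustment over all of them. The labels do not say whether replicates are separate mice, so p-values measure the spread between these libraries. The same replicate numbers do not mark a stated pairing, so no block was used.

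The 10 genes and all lists were chosen with earlier results of these data known. Named were all 10 genes and, from each of the 3 other pathway lists, the 3 tested genes of lowest p (0 passed) and the most abundant. From each marker list only the most abundant was named. The 3 genes nearest in profile to Dusp6 and to Spry4 were named by the rule for likeness. Mapk3, Ddr1 and Flot1 were added for their role or position, and the 5 other output genes below the filter for completeness. Positions and upstream sequences came from RefSeq tables of GRCm38.p6, the build of mm10. One gene of the cascade list is not reported here.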

Additional observations from a re-analysis of the deposited data

How the results depend on the processing

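The limits are those of 3 libraries per group. The count of genes called over all genes was 49, and it was 1 without a filter, 1111 with array quality weights and 120 with the replicate block. Leaving out 1 library gave 4, 238 and 35 without YKL-40-labelled libraries 1, 2 and 3, and 2, 0 and 209 without controls 1, 2 and 3 (where limma gave 1345 at an unadjusted p below 0.05 without control 2). Of the 10 genes, 0 were called under 8 of the 9 other settings, and 3 with array quality weights in limma, Ier3 (1.19, adjusted p = 0.0168), Spry4 (-0.66, adjusted p = 0.0217) and Etv5 (-0.46, adjusted p = 0.0496). Without 1 library the count ran from 0 to 1, the 1 being Ier3 without YKL-40-labelled library 2. Array quality weights also called 1 cascade gene, Erbb3 (-0.61, adjusted p = 0.0345), and 1 other output gene, Fos (0.99, adjusted p = 0.0310), in limma. Other settings and fits without 1 library called 0 genes of those lists.

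Directions held in 85 of 87 values of the 10 genes under the other settings. Another filter or none, no variance trend and the replicate block leave each change at its main value. Those settings could not reverse a direction, and the count includes them. The exceptions, both with array quality weights, were Dusp4 (-0.031) and Spry2 (-0.027). Without 1 library, 55 of 60 held, and the ranges that crossed 0 were -0.16 to 0.16 for Dusp4, -0.27 to 0.043 for Dusp6 and -0.095 to 0.19 for Spry2. The 60 include Dusp5, Ier3, Spry4, Etv4 and Etv5, whose groups did not overlap, so their direction could not change. The median of all tested genes moved by less than 0.1 under either scaling. The replicate block changed no call of the 10 genes. Deviations of same-numbered libraries correlated at -0.08, -0.19 and 0.0017 for numbers 1, 2 and 3, and those of differently numbered libraries at -0.14 to 0.20. These values show no pairing by number, but with so few libraries they cannot exclude one.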
